A study of Mus musculus with 12 samples.

Results

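The DNA replication machinery was followed in activated mouse B cells through 47 genes, chosen by gene symbol from the 29486 genes of the deposited table of normalized counts. All 47 symbols matched 1 row each, and all 47 genes passed the filter on low levels that left 15507 genes. The symbols were placed in 8 roles, from the proteins that mark an origin to those that seal the new strand. Total mRNA abundance had been measured by mRNAseq in splenic B cells of C57BL/6Babr mice, 8 to 12 weeks old by the study's methods, in 3 conditions with 4 libraries each. Every culture received LPS (lipopolysaccharide, a bacterial product that drives resting B cells into division) at 10 µg/ml. The LPS condition had 48 h of LPS alone. The LE condition had 48 h of LPS and then 20 µM etoposide for 4 h, a topoisomerase II poison that leaves DNA double-strand breaks. The LEKU condition had 47 h of LPS, then 10 µM KU55933, an inhibitor of the DNA damage kinase ATM, for 1 h, and then the same etoposide treatment. One label field of LEKU spells the inhibitor KU59933. The LPS cells were collected 4 h later as well, according to the design text. No condition with KU55933 and without etoposide was among the samples, and the Illumina indexes of a condition were not used in the other conditions, so that index and condition cannot be told apart. The comparisons asked what etoposide did to the levels of these mRNAs, and whether blocking ATM altered it.

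A replication origin is licensed before S phase. The origin recognition complex (Orc1 to Orc6) binds DNA and, with Cdc6 and Cdt1, loads the MCM ring (Mcm2 to Mcm7), while geminin (Gmnn) holds Cdt1 in check once licensing is over. The kinase Cdc7 with its activator Dbf4 then fires the origin, Cdc45 and the GINS proteins join the ring to form the active helicase (the CMG complex), and polymerases alpha with primase, delta and epsilon copy the strands on the sliding clamp PCNA, which the RFC proteins load. B cells activated by LPS divide fast and carry high amounts of these mRNAs, most of which are made in late G1 and S phase under E2F transcription factors.

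The columns of the table held 1 fitted level per condition. Within a condition the ratio between any pair of the 4 columns was the same for every gene, to within 2.8e-14 on the log2 scale, so the table carries no spread between replicates. For that reason no gene was tested, no p-value is given, and each gene is described by its level in LPS, LE and LEKU, in units of normalized counts, and by the log2 ratio of 2 levels (with 1 added to each). The intervals given are 95% intervals for the counting of reads only, with the fitted levels taken as read numbers, and are lower limits of the error. A gene was called past the threshold where its level differed by at least 1.5-fold. The library totals ran from 20739978 to 23935658 in LPS, from 22523516 to 30575195 in LE and from 20400994 to 25052093 in LEKU. Levels were put on 1 scale by the median of ratios over all genes, and the median of the 15507 genes then lay at -0.10 in LE against LPS. The 6 B cell markers checked were all present. Their summed level was 138200 in LPS, 71160 in LE and 81960 in LEKU, with Cd22 (24930, 4160 and 5018) and Pax5 (5732, 1092 and 1158) among them. Macrophage markers summed to 431.8, 455.3 and 427.9 in the same order, and of the 6 T cell markers 4 stayed under 3 in every condition, Cd2 being the 1 that passed the filter. The part of cell composition in the results below was not tested, and in bulk RNA a smaller number of cells of a type cannot be told apart from less RNA per cell. Cdkn1a, the p21 gene induced by damage through p53, was at 425.7 in LPS, 13080 in LE and 10710 in LEKU.

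The medians of the 47 genes lay below 0 in each of the 3 comparisons under every scaling tried. In LE against LPS, 43 of the 47 genes lay below 0 and the median log2 ratio was -0.43 (interquartile range from -0.66 to -0.20), beside -0.10 for all genes kept. 15 genes were lower past 1.5-fold and 0 were higher, beside 20.0% lower and 19.8% higher over all genes kept. In LEKU against LE, 39 genes lay below 0 with a median of -0.24, beside -0.01 for all genes kept. Only Tipin and Clspn were lower past 1.5-fold (4.3% of the 47) and 0 genes were higher, beside 10.8% and 7.80% of all genes kept, and 8 genes lay above 0 (Cdc7, Pold1, Orc3, Cdt1, Mcm8, Gins4, Pold3 and Pola2). In LEKU against LPS, 45 genes lay below 0 with a median of -0.70, beside -0.04 for all genes kept. 28 were lower past 1.5-fold and 0 higher, beside 17.8% and 18.8% of all genes kept. The 3 comparisons share libraries and are given side by side only. Past 2-fold, 3 genes were lower in LE against LPS (Pold1, Pola1 and Dbf4), 0 in LEKU against LE and 8 in LEKU against LPS, beside 7.4%, 4.3% and 6.8% of all genes kept.

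**Figure D1:**
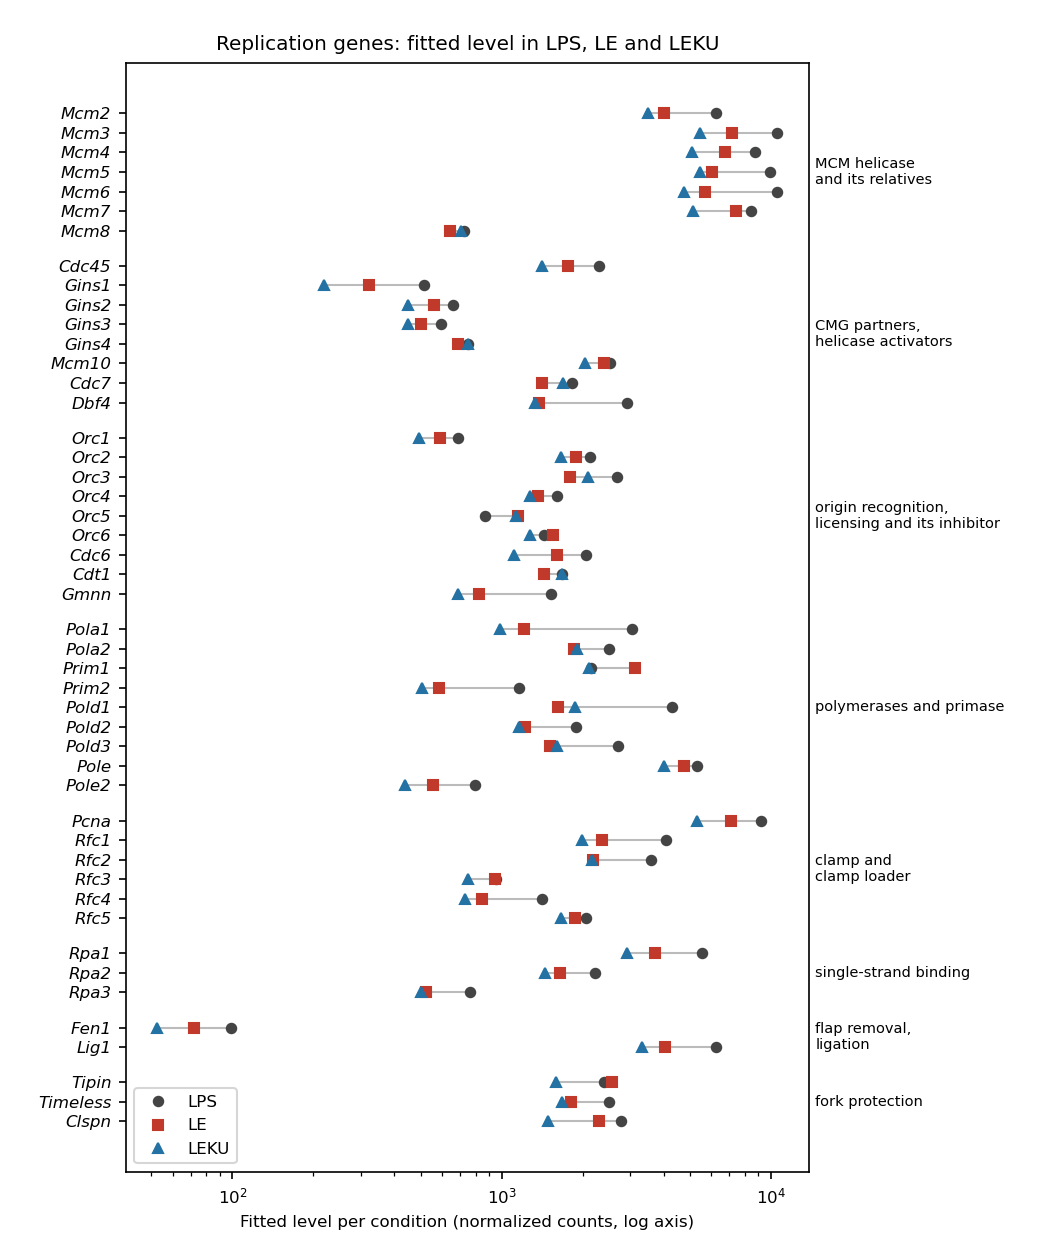
Fitted level of the 47 replication genes in LPS (dark circles), LE (red squares) and LEKU (blue triangles), in normalized counts on a log axis, grouped by role. Each symbol is 1 fitted level for 4 libraries and carries no error bar because the table holds no spread between replicates. LPS is the rightmost symbol for most genes, and Orc5, Orc6, Prim1 and Tipin are the 4 genes with a higher level in LE than in LPS.

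The count of genes past the threshold depended on how the conditions were put on 1 scale. Measured from the median of all genes kept instead of from 0, the genes past 1.5-fold in LE against LPS were 11 lower and 1 higher, beside 15.7% and 22.2% of all genes kept. Measured in the same way, they were 2 lower and 0 higher in LEKU against LE (10.6% and 8.1% of all genes kept), and 25 lower and 0 higher in LEKU against LPS (16.4% and 19.8%). With library totals as the scale, all genes kept split into 11.9% lower and 25.2% higher in LE against LPS, and the replication genes into 7 lower and 2 higher. Over 7 scalings that put the conditions on 1 scale, 32 of the 47 genes lay below 0 in LE against LPS under each, 4 lay above 0 under each (Orc5, Orc6, Prim1 and Tipin), and 11 lay on either side (Mcm4, Mcm7, Mcm8, Mcm10, Gins4, Cdt1, Orc2, Pole, Rfc3, Rfc5 and Pcna). In LEKU against LE, 38 genes lay below 0 and 7 above 0 under each scaling, with Pola2 and Rfc2 on either side. With the columns as deposited, which still carry the library factors and are not among the 7, 24 genes lay below 0 in LE against LPS and 41 in LEKU against LE. The counts by role given below are on the main scale.

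Genes of similar level were set beside the machinery. The 3249 genes with a mean level between 1005 and 2623, the interquartile range of the replication genes, had a median of -0.20 in LE against LPS, and 20.7% of them were lower past 1.5-fold, close to the 20.0% of all genes kept. In LEKU against LE the median of these genes was -0.0005 and 4.8% were lower past 1.5-fold. This window was chosen after the values were seen.

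**Figure D2:**
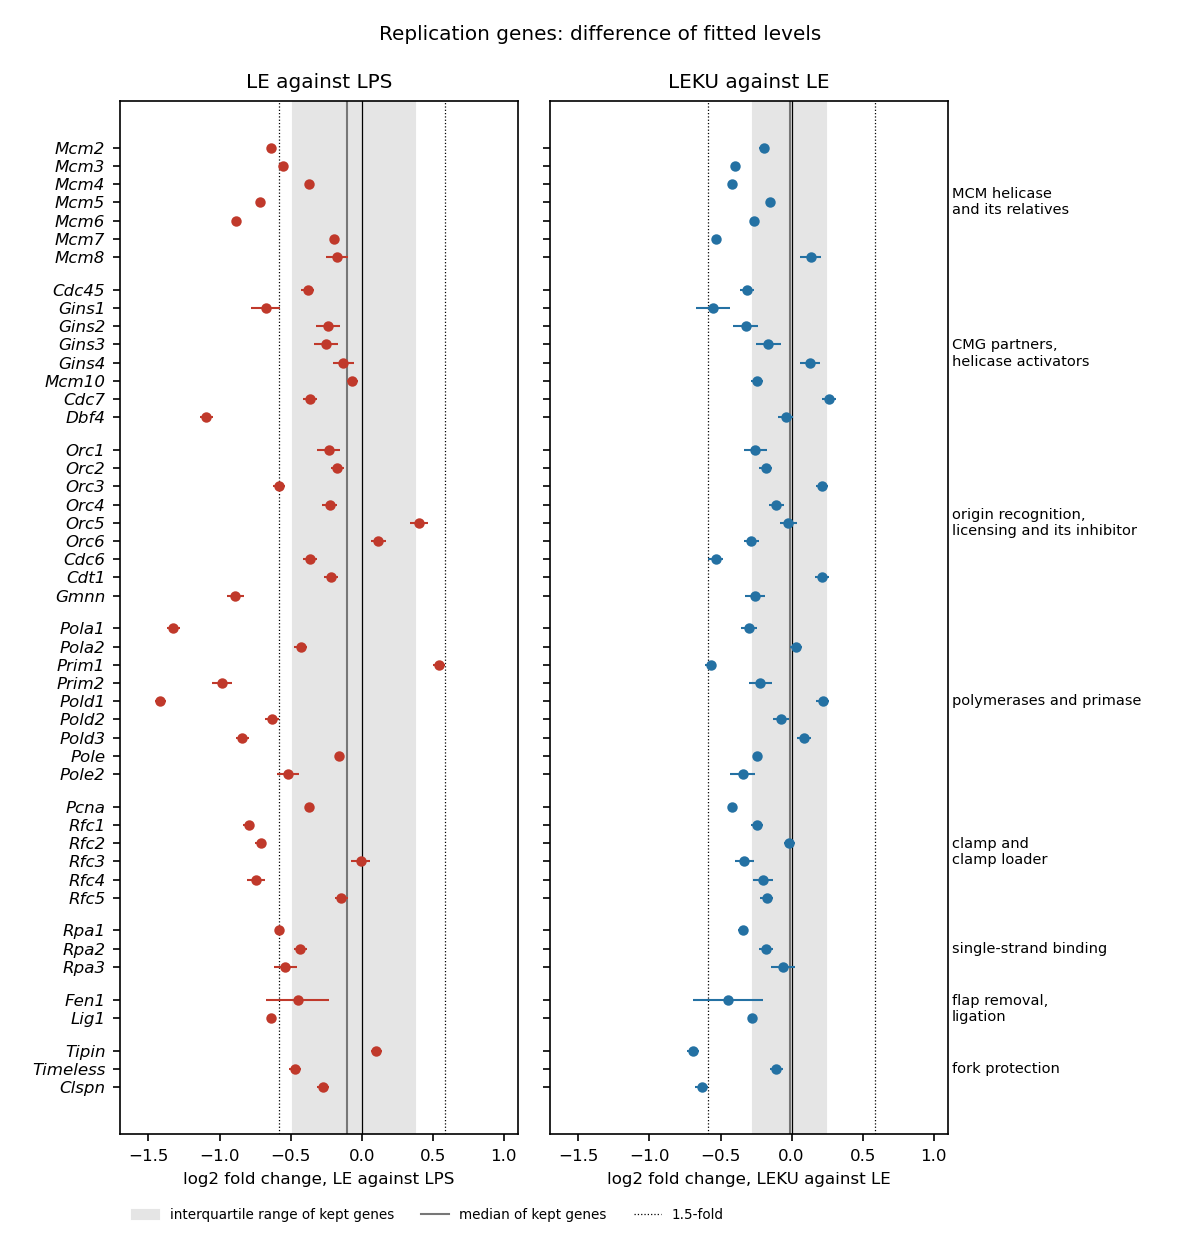
Log2 ratio of fitted levels for each replication gene, LE against LPS (left, red) and LEKU against LE (right, blue), with bars for the 95% counting interval, which does not cover the spread between replicates. The grey band is the interquartile range of the 15507 genes kept, the grey line their median, and dotted lines mark 1.5-fold. Pold1 and Pola1 lie farthest to the left with etoposide, and Tipin and Clspn with KU55933.

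Sequence upstream of the genes was examined for what the choice by symbol had not used. RefSeq promoters, from 250 bases before to 50 bases after the start (build GRCm38.p6), were at hand for 38 of the 47 genes. The letters of the E2F site were searched on both strands as TTTGGCGC, TTTCGCGC, TTTCCCGC and TTTGCCGC. 17 of the 38 promoters held at least 1 match (44.7%), beside 2.60% of the promoters of 27025 genes and 4.56% of those of the 10147 genes kept that had one. 5 upstream stretches are shown because their genes act at successive steps and differed to unequal extents, from the origin protein Orc1 and the loader Cdc6 to the ring subunits Mcm5 and Mcm6 and the polymerase Pola1. Each is written 5′ to 3′ on the strand of its gene, and capitals mark the match or the run of overlapping matches.

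Mcm6, chr1:128359719-128359841, minus strand: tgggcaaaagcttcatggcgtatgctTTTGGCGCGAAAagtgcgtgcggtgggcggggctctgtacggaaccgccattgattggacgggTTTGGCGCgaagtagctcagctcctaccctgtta
Mcm5, chr8:75109330-75109393, plus strand: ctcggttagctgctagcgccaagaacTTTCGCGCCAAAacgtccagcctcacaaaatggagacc
Cdc6, chr11:98907987-98908046, plus strand: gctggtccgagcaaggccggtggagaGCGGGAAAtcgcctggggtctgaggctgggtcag
Orc1, chr4:108579401-108579453, plus strand: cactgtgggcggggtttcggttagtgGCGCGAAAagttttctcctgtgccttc
Pola1, chrX:93632260-93632319, minus strand: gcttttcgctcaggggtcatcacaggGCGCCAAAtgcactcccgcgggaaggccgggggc

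Mcm6 held 3 matches, a pair that overlapped at positions -110 to -99 from the start and a single one at -47 to -40. Mcm5 held 2 that overlapped as well. The 17 genes with a match had a median log2 ratio of -0.52 in LE against LPS and the 21 without one -0.43. In LEKU against LE the medians were -0.26 and -0.18. A match is a run of letters and was not taken as a bound site. The CCAAT box, CCAAT on either strand, was found in 60.5% of the members' promoters and in 42.9% of those of kept genes. The cell cycle homology region, TTTGAA or TTCGAA on either strand, was found in 23.7% and 16.5%. The p53 decamer, of which a full p53 site holds a pair, was found in 3 promoters of the 38 (7.9%), those of Orc2, Pole2 and Fen1, and in 8.06% of kept genes.

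The replicative helicase was among the most abundant parts of the machinery. The 6 ring subunits had a median of -0.60 in LE against LPS, -0.33 in LEKU against LE and -0.85 in LEKU against LPS. Of them, 3 in the first and all 6 in the last were lower past 1.5-fold, beside 20.0% and 17.8% of all genes kept. With quantile normalization these counts were 0 and 1 (Mcm6), with library totals 1 and 4, and with the upper quartile 1 and 5. Of all genes kept, 20.6% and 16.6%, 11.9% and 10.3%, and 13.6% and 12.3% were lower in the same order. Mcm6, on chromosome 1 from 128331590 to 128359664 (minus strand, GRCm38), stood at 10535 in LPS, 5696 in LE and 4741 in LEKU. Its level in LE was 0.541 of that in LPS, a log2 ratio of -0.89 with a counting interval of ± 0.023. This was the lowest ratio of the ring. Mcm7, another subunit of the same ring, stood at 8469, 7404 and 5131. Its log2 ratio was -0.19 in LE against LPS, where it was 0.20 with quantile normalization and 0.23 with the columns as deposited, and -0.53 in LEKU against LE. The larger step of Mcm6 was thus with etoposide and that of Mcm7 with KU55933. Mcm5 (9906, 6037 and 5438) and Mcm2 (6257, 4016 and 3506) followed the course of Mcm6, with log2 ratios of -0.71 and -0.64 in LE against LPS and of -0.15 and -0.20 in LEKU against LE. Mcm3 (10592, 7208 and 5458) and Mcm4 (8759.6, 6788 and 5087) showed steps of similar size, -0.56 then -0.40 and -0.37 then -0.42. Per kb of exon, Mcm2 was the lowest and Mcm3 the highest ring subunit in every condition, and the highest level was 3.14 times the lowest in LPS, 3.33 times in LE and 2.89 times in LEKU. Here and below, the exon length is that of all annotated exons of a gene merged, and the size of such ranges depends on it. Mcm8, a relative of the ring that acts in homologous recombination, was at 726.3, 644.0 and 706.8. It showed no difference past 1.5-fold in any comparison, with log2 ratios of -0.17, 0.13 and -0.04.

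The partners that turn the ring into a moving helicase differed less. The 8 genes of this role had medians of -0.31 in LE against LPS and -0.20 in LEKU against LE. Lower past 1.5-fold were 2 of the 8 and 0, beside 20.0% and 10.8% of all genes kept. Dbf4, the activating subunit of the Cdc7 kinase, stood at 2927 in LPS, 1373 in LE and 1333 in LEKU. Its log2 ratio in LE against LPS was -1.09 (counting interval ± 0.046), at or below which 5.93% of all genes kept lay, and LEKU was close to LE with -0.04. Cdc7 itself stood at 1820.0, 1415 and 1695. Its LE level lay below both others, with log2 ratios of -0.36 in LE against LPS and 0.26 in LEKU against LE, the highest value of the machinery in that comparison. Gins1, a subunit of GINS, was at 514.2, 321.4 and 218.5, with -0.68 then -0.55. Gins4, which sits in the same complex, was at 751.5, 686.9 and 752.4, so that LPS and LEKU differed by 0.0018 on the log2 scale. The GINS subunits thus spread apart, and per kb the highest (Gins4) was 3.45 times the lowest (Gins2) in LPS and 5.1 times in LEKU. Gins2 shares 67.3% of its exonic bases with exons of Gse1 on the opposite strand, and its level (660.9, 560.9 and 448.1) is uncertain for that reason, since the strand setting of the counting is not given in the sources used here. Gse1 itself had a log2 ratio of 0.63 in LE against LPS. Cdc45 stood at 2297, 1765 and 1418, with -0.38 then -0.32. Mcm10, which helps to start the assembled helicase, was at 2522, 2410 and 2036, with -0.07 in LE against LPS, a value that turned to 0.15 under another scaling.

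Origin recognition and licensing genes had the median closest to 0 of the 8 roles in LE against LPS and in LEKU against LPS, and held the only member that was higher than in LPS by more than its counting interval in both treated conditions, Orc5. The 9 genes had medians of -0.23 in LE against LPS and -0.18 in LEKU against LE. Lower past 1.5-fold were 1 (11.1%) and 0, beside 20.0% and 10.8% of all genes kept. For Orc1 to Orc6 the medians were -0.20, -0.15 and, in LEKU against LPS, -0.34, and 0 of the 6 passed 1.5-fold in any comparison, although Orc5 passed it upward with library totals, at 0.62 in LE against LPS and 0.61 in LEKU against LPS, and with the columns as deposited. Orc3 came closest, at 2692 in LPS, 1799 in LE and 2087 in LEKU, with -0.58 in LE against LPS, just inside the log2 limit of 0.585, and 0.21 in LEKU against LE. Orc5 stood at 867.4, 1148 and 1130.3. Its log2 ratio was 0.40 (± 0.065) in LE against LPS, -0.02 in LEKU against LE and 0.38 in LEKU against LPS. Orc6 was slightly higher in LE (1436, 1556 and 1279.6). Orc1, whose E2F match lies just before its start, was at 691.5, 588.2 and 492.9. Cdc6, the loading factor, stood at 2063, 1603 and 1108, with log2 ratios of -0.36 in LE against LPS and -0.53 in LEKU against LE, the lowest of its role in the second comparison. Cdt1, which loads the ring with Cdc6, was at 1671 in LPS, 1439 in LE and 1669.6 in LEKU, the last almost equal to the first. Gmnn, the inhibitor of Cdt1, was at 1525, 822.6 and 689.1, with -0.89 (± 0.061) in LE against LPS. The inhibitor was thus the 1 gene of the role past 1.5-fold in LE, with a log2 ratio below those of both loading factors.

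Polymerases and primase showed the widest range of log2 ratios in LE against LPS, from Pold1 to Prim1. The 9 genes had medians of -0.63 in LE against LPS and -0.22 in LEKU against LE. With etoposide 5 (55.6%) were lower past 1.5-fold, beside 20.0% of all genes kept. Pold1, the catalytic subunit of polymerase delta, stood at 4309 in LPS, 1615 in LE and 1880.1 in LEKU. Its LE level was 0.375 of that in LPS, a log2 ratio of -1.42 (± 0.040), at or below which 2.62% of all genes kept lay. In LEKU it was higher than in LE, with 0.22. Pola1, the catalytic subunit of polymerase alpha on chromosome X from 93304767 to 93632155 (minus strand, GRCm38), stood at 3041, 1213 and 984.2. With -1.33 in LE against LPS and -1.63 in LEKU against LPS, it was the lowest of the machinery in the second of these. Prim2 and Prim1, the large and small subunits of primase, differed in direction. Prim2 was at 1164, 587.7 and 504.6, with -0.99 in LE against LPS. Prim1 was at 2151, 3134 and 2114, with 0.54 (± 0.041) in LE against LPS and -0.57 in LEKU against LE, so that its level was highest in LE. Prim1 was below 1.5-fold on the scale used, and above it when measured from the median of all genes kept. Pold2 (1892, 1222 and 1160.5) and Pold3 (2705, 1512 and 1609), the accessory subunits of polymerase delta, showed -0.63 and -0.84 in LE against LPS. Pole, the catalytic subunit of polymerase epsilon, was at 5330.1, 4772 and 4028, with -0.16, which turned to 0.15 under another scaling. Its partner Pole2 was at 795.6, 555.1 and 437.3, with -0.52.

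At the clamp, Pcna had the highest level per kb of exon of the 47 genes in LPS, 3839. Pcna stood at 9214 in LPS, 7121 in LE and 5335 in LEKU. Its log2 ratios were -0.37 in LE against LPS, with 0.04 under quantile normalization, and -0.42 in LEKU against LE. Of the longest Pcna transcript, 51.4% had a near-identical copy in the pseudogene Pcna-ps2 (at least 98% identity over at least 100 bases), which stood at 1419, 1141 and 810.9, so that reads of the 2 genes may have been split. The RFC loaders differed among themselves. Rfc1, the large subunit, was at 4085, 2353 and 1985, with -0.80 in LE against LPS and -0.25 in LEKU against LE. Rfc2 (3579, 2188 and 2165) and Rfc4 (1414, 844.4 and 733.8) showed -0.71 and -0.74 in LE against LPS. Rfc3, on the other hand, was at 950.3, 945.4 and 750.0, with -0.01 (± 0.066) in LE against LPS and -0.33 in LEKU against LE. Rfc5 (2066, 1871 and 1656) resembled Rfc3 in the first comparison, with -0.14. Both Rfc3 and Rfc5 lay on either side of 0 in LE against LPS, depending on the scaling.

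RPA, the trimer that coats single-stranded DNA at the fork, had subunits of similar level per kb of exon. Rpa1 stood at 5563 in LPS, 3723 in LE and 2932 in LEKU, with -0.58 in LE against LPS and -0.34 in LEKU against LE. Rpa2 stood at 2228, 1649.7 and 1456, with -0.43 and -0.18. Rpa3 stood at 763.0, 525.4 and 503.1, with -0.54 and -0.06. All 3 were lower past 1.5-fold in LEKU against LPS and 0 in LE against LPS, beside 17.8% and 20.0% of all genes kept. Under each of the other scalings tried, however, only Rpa1 passed 1.5-fold in LEKU against LPS. Per kb, the highest subunit was 1.48 times the lowest in LPS, 1.44 times in LE and 1.19 times in LEKU, a narrower range than that of the GINS or RFC subunits in any condition.

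Enzymes that finish the lagging strand were lower in both steps. Lig1, the DNA ligase that joins Okazaki fragments, stood at 6273 in LPS, 4040.1 in LE and 3336 in LEKU, with -0.63 (± 0.028) in LE against LPS and -0.28 in LEKU against LE. Fen1, the flap nuclease, was listed at only 98.7, 71.9 and 52.5, the lowest levels of the 47 genes, with -0.45 (± 0.22) and -0.45 (± 0.25). Of the exonic bases of Fen1, 84.2% lie in exons of Gm10143 and Tmem258 on the opposite strand (GENCODE M21), and the level of Fen1 is uncertain for that reason. By the same annotation, exons of other genes cover 29.8% of Orc2 and 15.1% of Rfc2, and between 10.7% and 12.7% of Mcm7, Orc1, Rfc4 and Rfc5. Gm10143 was at 35.5, 24.3 and 18.6, and Tmem258 at 1789, 1547 and 1459.

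Of the fork protection genes, Tipin and Clspn were the 2 of the 47 genes lower past 1.5-fold with KU55933 on the main scale, while Timeless was not. These 2 genes were 4.3% of the 47, a smaller share than the 10.8% of all genes kept. The count depended on the scaling, with 3 of the 47 genes under quantile normalization, 4 with TMM factors and 6 with the columns as deposited. Of all genes kept, 9.9%, 12.3% and 15% were lower past 1.5-fold in the same order. Tipin and Timeless form the complex that steadies a fork, and Clspn (claspin) carries the checkpoint signal from ATR to Chk1 there. Tipin stood at 2399 in LPS, 2577 in LE and 1593 in LEKU. It was slightly higher with etoposide (0.10, ± 0.041) and lower past 1.5-fold with KU55933 (-0.69, ± 0.043), at or below which 8.36% of all genes kept lay. Clspn stood at 2773, 2294 and 1481, with -0.27 in LE against LPS and -0.63 (± 0.045) in LEKU against LE. Timeless stood at 2499, 1808 and 1678, with -0.47 and -0.11. The larger step of Timeless was thus with etoposide and that of Tipin with KU55933. Clspn is named here because it was 1 of the 2 genes past the threshold.

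The ratio of 2 genes within a condition does not depend on the scale between conditions. For that reason 12 pairs of genes were also compared as ratios of their levels per kb of exon. Most pairs joined genes that act together, while Mcm8 over Mcm6 set a relative of the ring beside a ring subunit. The pairs were chosen after the values were seen. The exonic length was that of all annotated exons of a gene merged, which can far exceed 1 transcript. For Dbf4 it was 8728 bases, beside 2402 in its longest coding transcript. Which partner is the more abundant within a condition therefore depends on the length used. The difference of a ratio between conditions does not. Prim1 was 2.84 times Prim2 in LPS, 8.19 times in LE and 6.43 times in LEKU. This ratio was 2.89 times as high in LE as in LPS (counting interval 2.73 to 3.05), the largest difference of the 12 pairs in that comparison. Cdt1 was 0.511 of Gmnn in LPS, 0.816 in LE and 1.13 in LEKU, so that the loading factor passed its inhibitor in LEKU on this measure. The ratio was 1.597 times as high in LE (1.51 to 1.69) and 2.21 times as high in LEKU (2.09 to 2.34) as in LPS. Pola1 over Pola2 went the other way, from 1.14 in LPS to 0.614 in LE and 0.488 in LEKU. Dbf4 over Cdc7 was 0.771, 0.465 and 0.377. Pold1 over Pold2 was 0.889, 0.516 and 0.632, with its lowest value in LE. Orc5 over Orc3 was 0.318, 0.630 and 0.535, about 1.98 times as high in LE as in LPS (1.88 to 2.09). Gins1 over Gins4 was 0.609, 0.416 and 0.258. Tipin over Timeless was 3.14, 4.67 and 3.11, and its ratio in LEKU was 0.990 of that in LPS, with a counting interval of 0.946 to 1.04 that includes 1. Pold3 over Pold2 differed little, with 0.589, 0.510 and 0.571.

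**Figure D3:**
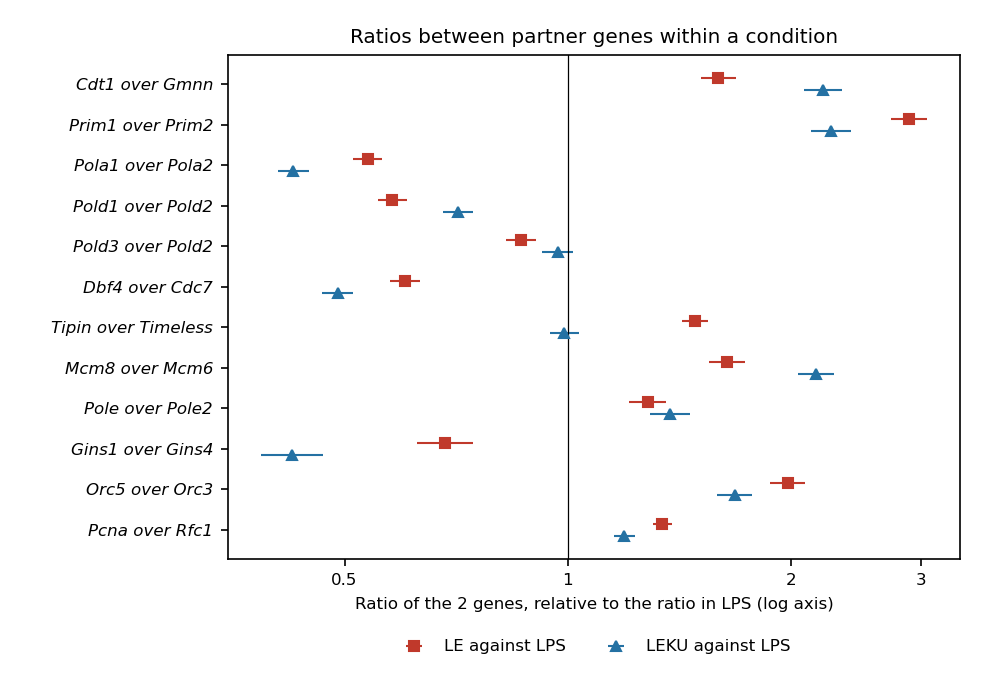
Ratio of the levels of the 2 genes of a pair in LE (red squares) and LEKU (blue triangles). Each is divided by the same ratio in LPS, on a log axis, with bars for the 95% counting interval. The line at 1 marks the ratio in LPS. Prim1 over Prim2 reached 2.89 in LE, and Pola1 over Pola2 and Gins1 over Gins4 lay lowest in LEKU, at 0.427 and 0.424.

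Genomic length was set beside the differences. The genomic spans of the 47 genes ran from 3.238 to 327.4 kb with a median of 20.44 kb (GENCODE M21). Only Pola1 (327.4 kb) and Prim2 (216 kb) were 100 kb or longer, and the next, Rfc1, spanned 73.82 kb. Pola1 and Prim2 were 2 of the 4 genes with the lowest log2 ratio in LE against LPS, the others being Pold1 (16.1 kb) and Dbf4 (25.74 kb). Among all genes kept, the 1525 with a span of at least 100 kb had a median of -0.33 in LE against LPS and the 13906 shorter ones -0.09. Over the 47 genes the Spearman correlation of span with the log2 ratio in LE against LPS was -0.19, and without Pola1 and Prim2 it was -0.09 (n = 45). Over the 15431 genes kept with an annotation it was -0.06. These are descriptions across genes of the same libraries, which are not independent replicates.

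**Figure D4:**
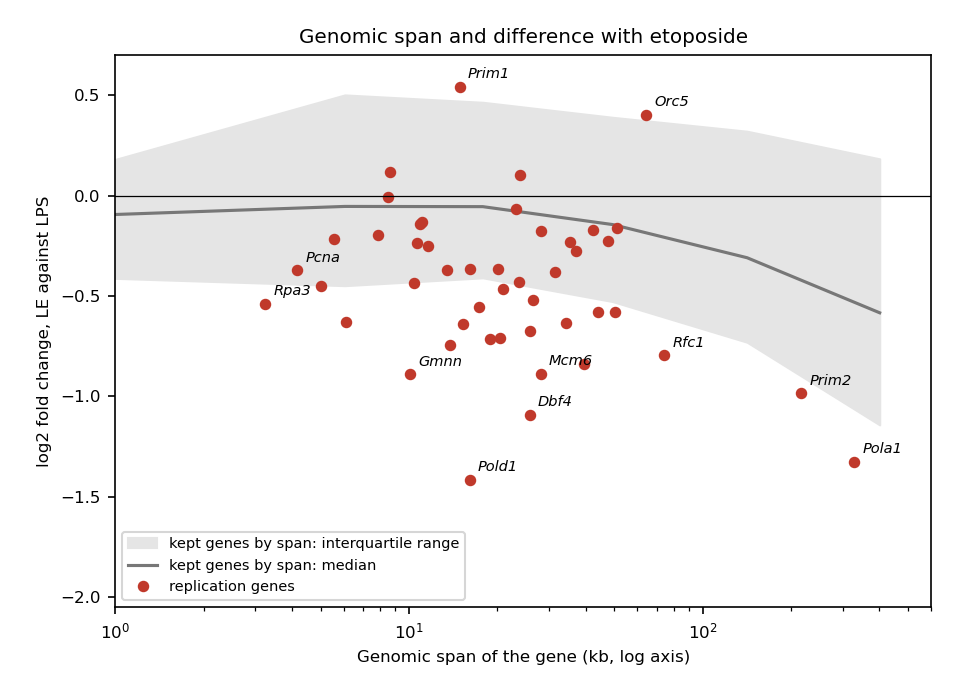
Genomic span of a gene (kb, log axis) against its log2 ratio in LE against LPS. Red points are the 47 replication genes, and the grey line and band are the median and interquartile range of the genes kept, in 6 bins of span. Pola1 and Prim2 lie at the long end at -1.33 and -0.99, while Pold1 at 16.1 kb lies lowest of all at -1.42.

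Other genes of DNA replication, 28 from a list of loading, nuclease, histone chaperone and fork genes, showed a similar course with etoposide. Their median was -0.53 in LE against LPS, -0.11 in LEKU against LE and -0.63 in LEKU against LPS, with 11, 1 and 15 lower past 1.5-fold (39.3%, 3.6% and 53.6%, beside 20.0%, 10.8% and 17.8% of all genes kept). The lowest in LE against LPS were Dscc1, a subunit of an alternative clamp loader (305.9, 124.3 and 145.7), at -1.29, and Asf1b, a histone H3-H4 chaperone (2188, 982.0 and 854.5), at -1.15. The lowest in LEKU against LE were Dna2, a nuclease and helicase (1418, 1540.0 and 912.7), at -0.75, and Chaf1b, a subunit of chromatin assembly factor CAF-1 (1053, 956.3 and 658.4), at -0.54. In LEKU against LPS, Fam111a, a protease of replication forks (9482, 4636 and 3627) was at -1.39 and Asf1b at -1.36. Ctc1, of the CST complex that works with polymerase alpha and primase at telomeres, was the 1 gene higher past 1.5-fold, at 2194 in LPS, 6606 in LE and 6169 in LEKU. Its log2 ratios were 1.59 in LE against LPS and -0.10 in LEKU against LE.

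Genes of later and neighbouring steps of the cell cycle were read in the same way. The 20 mitosis genes had medians of -1.54 in LE against LPS and -0.57 in LEKU against LE, with 17 and 9 lower past 1.5-fold (85.0% and 45.0%, beside 20.0% and 10.8% of all genes kept), so that the values of the replication genes were the smaller ones. The 18 genes of nucleotide supply had medians of -0.31 and -0.43, with 6 and 4 lower past 1.5-fold (33.3% and 22.2%) and 2 higher in the first comparison (11.1%, beside 19.8% of all genes kept). Differences between these lists were not tested.

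**Figure D5:**
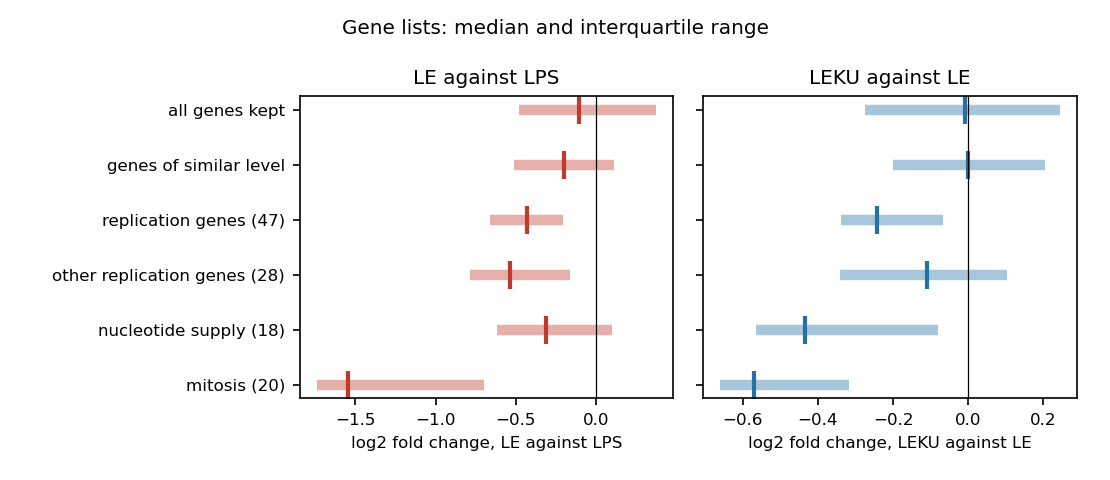
Median (tick) and interquartile range (bar) of the log2 ratio of 6 sets of genes in LE against LPS (left) and LEKU against LE (right); the horizontal scales differ. The replication genes, with medians of -0.43 and -0.24, lie between all genes kept (-0.10 and -0.01) and the mitosis genes (-1.54 and -0.57).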

How the data were processed

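Poly(A) RNA was sequenced as single-end reads of 100 bases from TruSeq libraries. According to the study's methods and the submitters' processing notes, reads were trimmed with Trim Galore and cutadapt 1.2.1, mapped with TopHat2 2.0.12 to GRCm38/mm10, counted with HTSeq on Ensembl release 78 genes and fitted with DESeq2 1.6.3. The table deposited by the authors as normalized counts holds a signal per gene and library, which was checked and is 1 fitted mean per condition times a factor of the library. The 3 tables of the authors' own comparisons list mean, fold change, error, statistic and raw and adjusted p for every gene, and were not used.

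Columns were divided by size factors from the median of ratios over all genes with values above 0 and averaged per condition. The filter asked for a level of 10 or more in 4 or more libraries, which 15507 of 29486 genes passed. Log2 ratios used a pseudocount of 1, and levels per kb used the merged length of all annotated exons of a gene. The planned test needs values per replicate and was replaced by a description. Counting intervals treat the summed fitted signal as reads. The genes named are, in each role, those with the lowest and highest log2 ratio in LE against LPS and in LEKU against LE, any past 1.5-fold against its role, and Pcna. The other genes described were named after their values were seen. Members and lists were chosen with earlier results of these data known. Overlaps used GENCODE M21, near-identical copies BLAST 2.17.0, and promoters RefSeq. The scripts, tested on simulated data, ran in Python 3.11.15 with numpy 2.4.6, pandas 2.3.3 and scipy 1.17.1. Alternatives were other scalings, pseudocounts, filters and folds.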

Additional observations from a re-analysis of the deposited data

Results flagged for a closer look

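Orc6 and Tipin lay on opposite sides of 0 in LE and in LEKU, each read against LPS. Orc6, a subunit of the origin recognition complex, had log2 ratios of 0.12 in LE against LPS and -0.17 in LEKU against LPS. Tipin had 0.10 in LE against LPS and -0.59 in LEKU against LPS. Each of the 4 values was larger than its counting interval. The difference between the conditions was not tested, because the table holds 1 fitted level per condition. Prim1 (0.54 and -0.03) and Gins4 (-0.13 and 0.0018) also lay on opposite sides of 0 in these comparisons. Their values in LEKU against LPS were smaller than their counting intervals, ± 0.045 and ± 0.075. The value of Orc6 in LEKU against LPS lay on either side of 0 depending on the scaling, up to 0.07, while that of Tipin stayed below 0 under each of the 7.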

How the results depend on the processing

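No paired analysis was possible because the columns hold 1 fitted level per condition and no spread between replicates, and for the same reason leaving out a replicate and the replicate block gave no values. The pseudocount and the filter changed no count of genes past 1.5-fold. Values below are the genes lower and higher past the threshold and the median log2 ratio. In LE against LPS (15, 0 and -0.43) they were 7, 2 and -0.21 with library totals, 11, 1 and -0.32 with TMM factors, 9, 1 and -0.19 with quantile normalization, 8, 1 and -0.26 with the upper quartile, and 3, 2 and -0.0071 with the columns as deposited, which still carry the library factors. In LEKU against LPS (28, 0 and -0.70) they were 18, 1 and -0.47, 25, 0 and -0.65, 14, 0 and -0.44, 21, 0 and -0.55, and 15, 1 and -0.41 in the same order. The shares of all genes kept that were lower there were 10.3%, 15.5%, 16.6%, 12.3% and 9.0%. In LEKU against LE (2, 0 and -0.24) TMM factors gave 4 lower and -0.29, and the columns as deposited 6 lower and -0.37. The shares of all genes kept that were lower in these 2 settings were 12.3% and 15%. The median of ratios over kept genes and over genes with a mean above 100, both chosen after seeing the data, gave 12, 1 and -0.34 and 8, 1 and -0.26 in LE against LPS, 3 and 4 lower in LEKU against LE, with -0.27 and -0.29, and 25, 0 and -0.65 and 23, 0 and -0.58 in LEKU against LPS. Of all genes kept, 16.2% and 13.5%, 11.6% and 12.0%, and 15.5% and 13.2% were lower in the same order. With a threshold of 25% above the lower level in place of 50%, 29 were lower and 2 higher in LE against LPS, 14 lower in LEKU against LE, and 38 lower and 1 higher in LEKU against LPS. Of all genes kept, 34.9% were lower and 27% higher at this threshold in LE against LPS. In LEKU against LE 21.7% of them were lower, and in LEKU against LPS 31.7% were lower and 28.5% higher. With 2-fold, 3, 0 and 8 were lower in the 3 comparisons, beside 7.4%, 4.3% and 6.8% of all genes kept. In LE against LPS the share of all genes kept that was lower past 1.5-fold was 11.9% with library totals, 15.5% with TMM factors, 20.6% with quantile normalization, 13.6% with the upper quartile and 7.3% with the columns as deposited, so that with quantile normalization and with the columns as deposited the share of replication genes (9 and 3 of 47) was no higher than that of all genes kept. The median of the replication genes minus that of all genes tested was -0.33 in the main scaling and -0.11 with quantile normalization in LE against LPS. Of 792 values of the 24 named genes under the alternatives, 750 lay on the same side of 0 as reported and 42 on the other. The other pseudocounts and filters are among these alternatives and cannot turn a sign. Agreement under them was thus fixed in advance, and all 42 turns came from the other scalings.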
